A study of Mus musculus with 36 samples.

Results

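The genes of the sarcomere, the costamere and the dystrophin complex were described in single cells of the injured mouse heart. The 36 genes were taken by symbol from the 20720 nuclear genes that the UMI tables list. They comprised 4 genes of the thick filament, titin and M-band (Ttn, Myom1, Myom2 and Mybpc3), 8 of the thin filament (Tnnt2, Tnni3, Tnnc1, Tnnt1, Tnni1, Tpm1, Tmod1 and Lmod2), 10 of the Z-disc (Actn2, Tcap, Myoz2, Ldb3, Nexn, Nebl, Myot, Mypn, Pdlim5 and Fhl2), 7 of myofibril assembly, turnover and signalling (Smyd1, Unc45b, Trim63, Trim54, Trim55, Mylk3 and Myo18b) and 7 of the intermediate filament, costamere and dystrophin complex (Des, Synm, Cmya5, Dmd, Sgca, Sgcb and Sgcd). Each symbol had 1 row in the tables.

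The samples were 36 plates of cells sorted from the left ventricle of male C57BL/6 mice, labelled as 8 weeks old, from the infarcted region or, per the study's methods, the corresponding region of sham hearts. No transgene or deletion is stated. Sham surgery was sampled on 4 plates at day 1 and on 8 at day 14. Ischemia-reperfusion (IR) had 9 plates at day 1, 7 at day 3 and 3 at day 14, and in it the left anterior descending artery was closed for a limited time. Myocardial infarction (MI) had 5 plates at day 3, and in it the artery was closed for good. SORT-seq places 1 cell in each well and counts transcripts by unique molecular identifiers (UMIs) read near the 3′ end. No source links plates to mice. The study's methods give n = 3 per condition for its day 3 hearts, and there were 5 MI plates, so MI plates may share hearts. The p-values therefore measure plate-to-plate spread and may understate the spread of animals. The MI plates carry a surgery label of their own, so that surgery and any batch they share cannot be told apart.

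The sarcomere is the contractile unit of striated muscle. Myosin thick filaments, held at the M-band by myomesins and along their length by titin and myosin-binding protein C, slide past actin thin filaments whose troponin and tropomyosin respond to calcium, and thin filaments are anchored at the Z-disc by alpha-actinin. Costameres tie the outermost Z-discs to the cell membrane through desmin filaments and the dystrophin-glycoprotein complex, of which the sarcoglycans are membrane subunits. In the adult heart these genes are used mostly by cardiomyocytes, while Tnni1 and Tnnt1 encode slow skeletal troponins.

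RefSeq windows on GRCm38.p6, from 250 bases before to 50 bases after a gene's start, are printed 5′ to 3′ on the strand of the gene for Ttn and Sgca, the members furthest below sham after MI, for Mybpc3, which was lower after both MI and IR day 1, and for Myoz2, which was higher after MI. Capitals mark matches to the E-box CANNTG, to the M-CAT motif CATTCC and to the MEF2 motif, searched on both strands.
Ttn (chr2:76982498-76982797, minus strand): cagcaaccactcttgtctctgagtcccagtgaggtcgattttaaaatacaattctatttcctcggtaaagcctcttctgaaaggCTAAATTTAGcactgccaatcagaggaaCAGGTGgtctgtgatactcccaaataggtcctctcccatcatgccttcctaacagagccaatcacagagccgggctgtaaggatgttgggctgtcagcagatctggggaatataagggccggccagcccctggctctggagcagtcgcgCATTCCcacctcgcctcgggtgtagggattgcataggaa
Mybpc3 (chr2:91117894-91118193, plus strand): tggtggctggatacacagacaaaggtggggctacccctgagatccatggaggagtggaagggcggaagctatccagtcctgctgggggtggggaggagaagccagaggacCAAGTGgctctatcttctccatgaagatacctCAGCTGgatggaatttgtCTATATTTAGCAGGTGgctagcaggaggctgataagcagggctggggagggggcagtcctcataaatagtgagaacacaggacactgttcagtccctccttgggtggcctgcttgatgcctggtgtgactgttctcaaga
Sgca (chr11:94976278-94976577, minus strand): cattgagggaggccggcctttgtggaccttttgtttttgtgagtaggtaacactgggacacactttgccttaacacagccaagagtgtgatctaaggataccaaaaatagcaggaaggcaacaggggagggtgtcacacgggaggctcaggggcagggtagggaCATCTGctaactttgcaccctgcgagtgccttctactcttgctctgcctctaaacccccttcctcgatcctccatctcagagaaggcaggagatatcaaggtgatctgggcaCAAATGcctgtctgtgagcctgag
Myoz2 (chr3:123034938-123035237, minus strand): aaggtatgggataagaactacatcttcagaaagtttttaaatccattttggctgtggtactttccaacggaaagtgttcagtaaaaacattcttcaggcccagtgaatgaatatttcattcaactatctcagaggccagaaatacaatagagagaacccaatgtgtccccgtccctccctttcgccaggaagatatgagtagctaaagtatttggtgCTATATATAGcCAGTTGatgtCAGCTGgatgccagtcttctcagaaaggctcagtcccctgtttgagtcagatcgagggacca
The windows of Ttn, Mybpc3 and Myoz2 each held 1 MEF2 match, and that of Sgca held none. A window was found for 30 of the 36 members, and a gene with several windows was counted 1 time. The MEF2 motif was in 5 of the 30 (16.7%: Dmd, Fhl2, Mybpc3, Myoz2 and Ttn), against 3.70% of all 27025 genes with a window. The CArG box, the motif of serum response factor, was also in 5 (Dmd, Fhl2, Ldb3, Myom1 and Nebl), against 1.81%. M-CAT matches were in 11 (36.7%) against 16.6%, the GATA motif AGATAA in 6 against 12.7%, TATAAA in 8 (26.7%) against 15.7% and the E-box in 26 (86.7%) against 75.0%. Motifs can overlap, as the MEF2 and E-box matches of Mybpc3 abut, and these are matches of letters and not measured binding.

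Wells with at least 1000 nuclear UMIs numbered 3146 of 13824. The deposited tables name no cell types, so wells were clustered with the 36 genes left out, and 907 wells in 3 clusters were called cardiomyocyte-like from 10 markers outside the set. Of these, 896 were used for pooled values, since 1 sham day 14 table (replicate 2) shared its plate with replicate 7 and held 16 wells that matched IR day 3 replicate 6. By group the 896 wells were 163 at sham day 1, 161 at sham day 14, 29 at IR day 1, 242 at IR day 3, 282 at IR day 14 and 19 at MI day 3. All 10 cardiomyocyte markers were detected in every group, and their summed level was lowest on the IR day 1 plates. It was 25166 to 39915 UMIs per 1000000 (CPM) there, against 55526 to 81644 on the sham day 1 plates. On the MI plates it was 48980 to 58392, and on the sham day 14 plates 86916 to 121925. The part of these marker levels in the members' fold changes was not tested. The cardiomyocyte-like clusters differed between groups. The cluster led by Sprr1a, Nppa and Nmrk2 held 12 of the 324 sham wells, 24 of 29 wells at IR day 1, 162 of 242 at IR day 3, 27 of 282 at IR day 14 and all 19 at MI day 3. MI wells were also deeper, with a median of 8820 UMIs against 2238 to 3286 in the other groups, and the median mitochondrial share of their UMIs was 5.23% against 67.4% to 79.5%. Rn45s gave 4.01% of the nuclear UMIs of MI wells, against 16.8% to 23.7% in the other groups.

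The members were abundant in the cardiomyocyte-like wells. Together they made up 6.64% of nuclear UMIs, and each of the 896 wells held at least 1 of their UMIs after thinning to 1000 UMIs. Ttn, the giant spring protein of the sarcomere, gave 33.8% of the members' UMIs, cardiac troponin T (Tnnt2) 19.4%, tropomyosin (Tpm1) 12.2% and cardiac troponin I (Tnni3) 7.11%. UMIs read near the 3′ end count molecules whatever their length, so these shares were not divided by length. At the other end, Nebl, Sgcd, Myot, Tmod1, Tnnt1, Trim55 and Synm had 30 to 136 UMIs each over all 896 wells, and Tnni1 had 1. For the tests, wells were summed per plate where a plate had at least 5, which left 19 plates with 18414 to 836461 UMIs: 4 at sham day 1, 4 at sham day 14, 2 at IR day 1, 4 at IR day 3, 3 at IR day 14 and 2 at MI day 3, the last with 6 wells each. Of the 3849 genes tested, 28 were members. The 8 below the filter on low counts were Tnnt1, Tnni1, Tmod1, Nebl, Myot, Trim55, Synm and Sgcd, and nothing is said of their change.

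**Figure D1:**
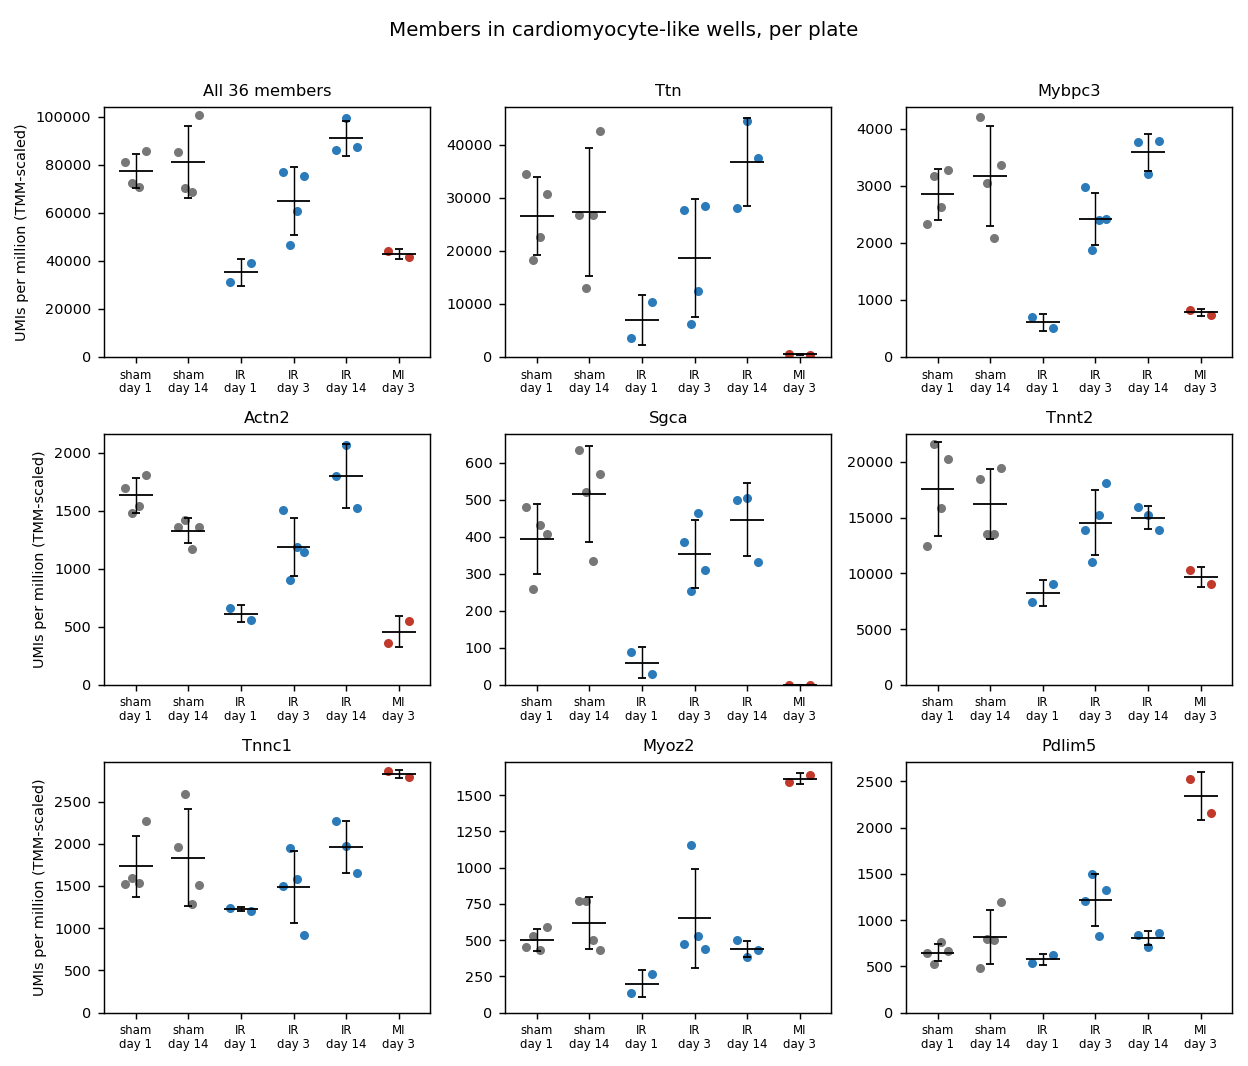
Level in CPM (UMIs per 1000000), scaled by the TMM method, on each of the 19 plates (points) with the mean (line) and SD (bar) of each group, for the sum of the 36 members and for 8 of them. The sum on the 2 MI plates (41533 and 44293) and the 2 IR day 1 plates (31358 and 39318) lay below the lowest sham plate (68529) on this scale, whereas Tnnc1, Myoz2 and Pdlim5 were highest on the MI plates.

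The summed level of the members was 79371 ± 11037 CPM on the sham plates (SD, n = 8), 35338 ± 5629 at IR day 1 (n = 2), 64934 ± 14060 at IR day 3 (n = 4), 90995 ± 7302 at IR day 14 (n = 3) and 42913 ± 1952 at MI day 3 (n = 2). Levels here and below are CPM over the cardiomyocyte-like wells of a plate, scaled by the trimmed mean of M-values (TMM). Fold changes are log2 values of edgeR's quasi-likelihood test ± SE, with Benjamini-Hochberg adjusted p over all 3849 genes. The test gives no SE, so it was computed as the size of the log2 fold change divided by the square root of F. On plain plate totals the sum was 6.44% ± 0.74 of UMIs on the sham plates, 3.73% ± 0.15 at IR day 1 and 5.09% and 5.62% on the MI plates. The MI mean was thus 0.541 times that of sham with TMM and 0.831 times with plain totals, where MI replicate 3 lay inside the sham range (5.61% to 7.75%), while both IR day 1 plates stayed below it. In summed wells, fewer cells of a type and less RNA per cell cannot be told apart.

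MI day 3 was compared with the 8 sham plates of both days, weighted equally by day, as no sham plate of day 3 was analysed here. Of the 28 members tested, 15 were lower and 2 were higher in the MI wells. The median log2 fold change was −0.96 over the members and −0.10 over all genes, and 39.4% of all genes were called (16.6% higher and 22.8% lower). Without MI replicate 3 these medians were −1.64 and −0.39, and without replicate 2 they were −1.15 and −0.56. The plates of the groups did not overlap for 22 members, against 41% of all genes. Members of the thick filament and M-band (4 of 4) and of the costamere and dystrophin complex (4 of 5) were lower, while 1 of the 5 thin filament genes was. At the Z-disc 2 of 8 were lower and 2 higher, and among the genes of assembly and turnover 4 of 6 were lower.

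Titin was furthest from sham among the members with a UMI on the MI plates. Its level was 34475, 18256, 22706 and 30804 on the sham day 1 plates, 26796, 26821, 13024 and 42553 on the sham day 14 plates, and 607 and 435 on the MI plates. Every sham plate was above both MI plates, and the fold change was −5.68 ± 0.64 (edgeR adjusted p = 1.8e-09). Over all wells, 125 Ttn UMIs were counted in the 19 MI wells against 27504 in the 324 sham wells, which is 38.5-fold lower per UMI sequenced (95% exact interval 32.3 to 46.2, counting error only). Ttn, at chr2:76703980-76982547 on the minus strand of GRCm38, has the longest transcript of the set (106824 bases in 347 exons). As a ratio that no scaling of the plates affects, there were 0.0481 and 0.0591 Ttn UMIs per Tnnt2 UMI on the MI plates, against a median of 1.49 on the 8 sham plates (0.846 to 2.78).

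The other thick filament and M-band genes were lower too. Mybpc3, which encodes cardiac myosin-binding protein C (chr2:91118144-91136516, plus strand), was at 2324, 3177, 2637 and 3270 on the sham day 1 plates, 4203, 2091, 3041 and 3362 on the sham day 14 plates, and 827 and 736 on the MI plates (−1.94 ± 0.35, edgeR adjusted p = 2.5e-05). Its ratio to Tnnt2 was 0.0806 and 0.0815 on the MI plates against 0.147 to 0.228 on the sham plates. Both MI plates were again below every sham plate. Myom1 and Myom2 encode myomesins, which cross-link myosin at the M-band. Myom1 was at 188 and 234 on the MI plates against 1351 to 2098 on the sham plates (median 1599), a fold change of −2.98 ± 0.42 (edgeR adjusted p = 2.1e-07). Myom2 was at 165 and 201 against 593 to 876 (median 670), a fold change of −1.99 ± 0.41 (edgeR adjusted p = 0.00017).

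At the membrane, Sgca, which encodes alpha-sarcoglycan (chr11:94962791-94976327, minus strand), had 0 UMIs among 123135 on the MI plates against 496 among 1308245 on the sham plates. Its levels were 480, 258, 432 and 406 at sham day 1 and 635, 335, 522 and 571 at sham day 14. Taking 3 UMIs over the MI plates as the limit that a count of 0 allows, Sgca was at least 15.6-fold lower (edgeR adjusted p = 6.1e-09). With the MI wells of the other 3 plates added, the pooled count was 1 UMI in 19 wells against 499 in the sham wells (ratio 0.0115, 95% exact interval 0.00029 to 0.0641). Cmya5, which encodes the costameric protein myospryn, was at 88.3 and 0 on the MI plates against 422 to 904 on the sham plates (−3.67 ± 0.60, edgeR adjusted p = 4.7e-06). Dmd, which encodes dystrophin, was at 22.1 and 83.7 against 108 to 593 (−2.71 ± 0.72, edgeR adjusted p = 0.0025), and these MI levels rest on 2 and 5 UMIs. Sgcb, which encodes beta-sarcoglycan, was at 55.2 and 0 against 108 to 368 (−2.53 ± 0.67, edgeR adjusted p = 0.0024). The MI plates were below all sham plates for these 4 genes. The exception in this group was Des, the muscle intermediate filament gene, at 3288 and 2728 against 1602 to 3090, where plates overlapped (0.55 ± 0.29, edgeR adjusted p = 0.13). Without MI replicate 2 the call of Dmd was lost, and without MI replicate 3 that of Sgcb.

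The thin filament genes were nearer to sham. Tnni3, the inhibitory troponin subunit, was at 2935 and 3481 on the MI plates against 4294 to 8538 on the sham plates (−1.02 ± 0.35, edgeR adjusted p = 0.019), and this call was lost without either MI plate. Tnnt2, which attaches troponin to tropomyosin, was at 10271 and 9036 against 12417 to 21579 and missed the threshold (−0.81 ± 0.34, edgeR adjusted p = 0.056). Tnnc1, the calcium-binding subunit, was at 2857 and 2795 against 1282 to 2586 (0.66 ± 0.30, edgeR adjusted p = 0.073). Tpm1 was at 13636 and 11663 against 6260 to 12664 (0.65 ± 0.30, edgeR adjusted p = 0.079). Lmod2, a leiomodin that elongates thin filaments, was at 265 and 335 against 213 to 368. Relative to Tnnt2 on the same plate, Tpm1 was at 1.29 and 1.33 in MI against 0.290 to 0.937 in sham, and Tnnc1 at 0.278 and 0.309 against 0.0738 to 0.191. Thus Tnnc1 and Tpm1 did not hold 1 ratio to Tnnt2 across these groups.

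The Z-disc genes went both ways. Pdlim5, which encodes the PDZ and LIM domain protein ENH (chr3:142239590-142395696, minus strand), was at 640, 525, 759 and 669 at sham day 1, at 484, 781, 798 and 1194 at sham day 14, and at 2526 and 2159 on the MI plates (1.69 ± 0.28, edgeR adjusted p = 5.1e-06). Myoz2, which encodes calsarcin-1, an inhibitor of calcineurin at the Z-disc (chr3:123006206-123035015, minus strand), was at 451, 525, 432 and 593 at sham day 1, at 773, 502, 768 and 430 at sham day 14, and at 1589 and 1640 on the MI plates (1.53 ± 0.30, edgeR adjusted p = 6.8e-05). Both genes were above every sham plate on both MI plates. Actn2, which encodes alpha-actinin-2, the main actin cross-linker of the Z-disc, was at 364 and 552 against 1171 to 1811 (−1.70 ± 0.34, edgeR adjusted p = 0.00011). Nexn, which encodes nexilin, was lower (−0.90 ± 0.36, edgeR adjusted p = 0.044), a call lost in 10 of the 19 fits that left out 1 plate and in 8 of 15 other settings. Fhl2, Ldb3 (the PDZ-LIM protein cypher), Mypn (myopalladin) and Tcap (telethonin) were not called. Their fold changes were 0.57, −0.45, −0.86 and −0.64.

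Of the genes of assembly and turnover, Myo18b, an unconventional myosin needed to build sarcomeres, was at 55.2 and 66.9 on the MI plates against 165 to 439 on the sham plates (−2.17 ± 0.49, edgeR adjusted p = 0.00041). Trim54, a ubiquitin ligase of the MuRF family, had a fold change of −1.52 ± 0.46 (edgeR adjusted p = 0.0074). Unc45b, a myosin chaperone, had a fold change of −1.38 ± 0.48 (edgeR adjusted p = 0.019) on 8 and 3 MI UMIs. It was also the 1 tested member whose pooled level was higher in endothelial-like than in cardiomyocyte-like wells. Mylk3, the cardiac myosin light chain kinase, had one of −1.26 ± 0.39 (edgeR adjusted p = 0.0093). The calls of Trim54, Unc45b and Mylk3 were lost without MI replicate 2, and that of Unc45b also without MI replicate 3. Smyd1 (−0.80), a methyltransferase, and Trim63 (−0.86), which encodes MuRF1, were not called.

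The MI calls changed with scaling. TMM set the MI plates 1.26 and 1.51 times above their UMI totals, and with plain totals, a setting chosen after seeing the data, the median over all genes moved from −0.10 to 0.51 and that of the members from −0.96 to −0.31. On that scale 10 members were lower (Sgca, Ttn, Cmya5, Myom1, Dmd, Sgcb, Myo18b, Myom2, Mybpc3 and Actn2) and 6 higher (Pdlim5, Myoz2, Tnnc1, Tpm1, Des and Fhl2), and 66.6% of the genes called over the whole table were higher in place of 42.1%. Fibroblast markers on the MI plates summed to 671 to 2037 CPM with 7 of 10 detected (Lum, Dpt and Tcf21 at 0), against 102 to 725 on the sham plates with 9 of 10 detected in each sham group. Macrophage markers summed to 190 to 543 against 23.1 to 175, with 8 of 10 detected in each of these groups (Adgre1 at 0 in all 3). Endothelial markers summed to 67.9 to 127 with 5 of 10 detected (Cdh5, Ly6c1, Tie1, Flt1 and Eng at 0), against 108 to 965 with 10 of 10, and the part of these lists in the fold changes was not tested.

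**Figure D2:**
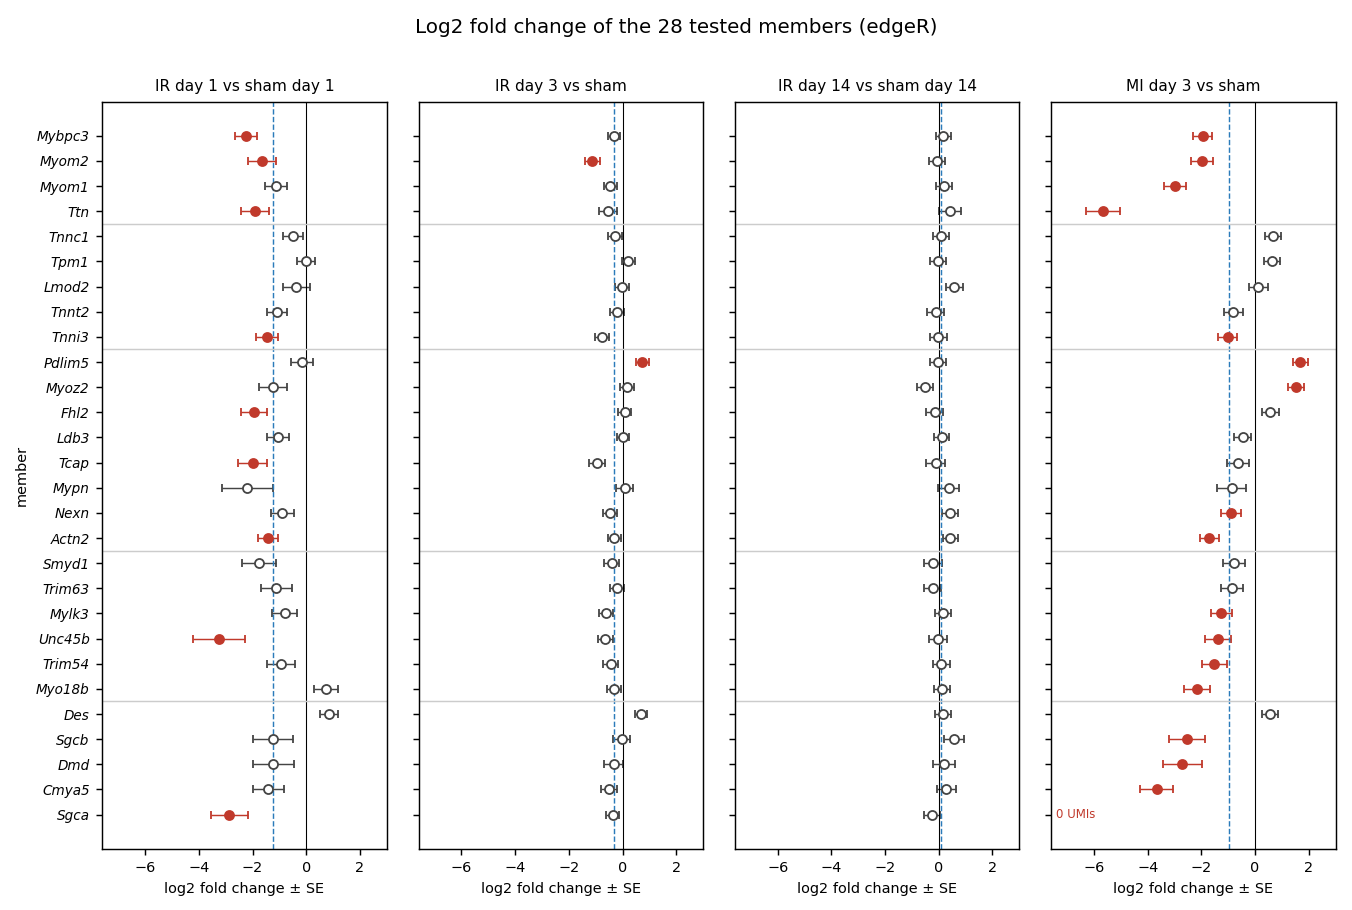
Log2 fold changes ± SE of the 28 tested members against sham, by group and ordered by role (grey lines part the thick filament, thin filament, Z-disc, assembly and costamere groups). Filled red points passed an edgeR adjusted p of 0.05 and the dashed line is the members' median. The members spread widely at MI day 3 and IR day 1, with medians of −0.96 and −1.22, and lay close to 0 at IR day 14, with a median of 0.10.

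Both day 3 injuries were set against each other, which compares a permanent with a temporary closure at 1 time. MI wells were lower in 9 members and higher in 3, with 25.7% of all genes called (8.94% higher and 16.8% lower), and the medians were −0.65 over the members and −0.18 over all genes. Without MI replicate 3 the medians were −1.05 and −0.45, and without replicate 2 −0.88 and −0.60. Plates did not overlap for 17 members, against 40.6% of all genes. Ttn was at 27729, 6226, 12367 and 28366 on the IR day 3 plates, above 607 and 435 on the MI plates (−5.15 ± 0.63, edgeR adjusted p = 5.7e-08). Sgca had 394 UMIs among 1202117 on the IR day 3 plates (levels 386, 253, 464 and 310) against 0 on the MI plates, at least 13.5-fold lower (edgeR adjusted p = 2.2e-07). The genes that were lower thus again included Ttn and a sarcoglycan. Cmya5 (−3.17 ± 0.63), Myom1 (−2.52 ± 0.43), Sgcb (−2.50 ± 0.70), Dmd (−2.37 ± 0.75), Myo18b (−1.85 ± 0.51), Mybpc3 (−1.63 ± 0.37) and Actn2 (−1.40 ± 0.36) were lower with edgeR adjusted p from 1.7e-05 to 0.016. Myoz2 was at 472, 1158, 528 and 439 on the IR day 3 plates, below both MI plates (1.37 ± 0.34, edgeR adjusted p = 0.0024). Pdlim5 (0.95 ± 0.32, edgeR adjusted p = 0.026) and Tnnc1 (0.94 ± 0.33, edgeR adjusted p = 0.032) were higher, and both calls were lost without either MI plate and without either IR day 1 plate, that of Pdlim5 also without IR day 3 replicate 6 and that of Tnnc1 without IR day 3 replicate 4 or replicate 7. In the other 14 settings Tnnc1 was lost in 6 and Pdlim5 in 4. Without MI replicate 2, 7 members passed, all lower, and the calls of Myoz2, Actn2, Dmd and Myo18b were lost too. Without MI replicate 3 that of Sgcb was lost. Within the Sprr1a cluster alone, a choice made after seeing the data, 5 members were lower in MI than in IR day 3: Sgca (again 0 UMIs on the MI plates), Ttn (−4.60), Cmya5 (−2.77), Myom1 (−2.33) and Sgcb (−2.24). Myoz2 (1.35 ± 0.51), Tnnc1 (1.13 ± 0.47) and Pdlim5 (0.70 ± 0.47) did not pass there, the first 2 at fold changes close to those over all cardiomyocyte-like wells.

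IR day 1 was compared with sham day 1. No member was higher and 9 were lower, where 10.1% of all genes were called (3.92% higher and 6.18% lower), and the median was −1.22 over the members and −0.47 over all genes. Without IR day 1 replicate 3 both medians were −2.20, so that the members did not stand below all genes, and without replicate 2 they were −1.12 and −0.73. With no filter on low counts they were −1.71 and −1.65. Plates did not overlap for 25 members, against 43% of all genes. Mybpc3 was at 710 and 501 on the IR day 1 plates, below all sham day 1 plates (−2.26 ± 0.41, edgeR adjusted p = 0.00018). Ttn was at 3637 and 10345, also below all 4 sham day 1 plates (−1.92 ± 0.51, edgeR adjusted p = 0.012). Sgca was at 88.7 and 29.5, from 2 and 1 UMIs (−2.87 ± 0.69, edgeR adjusted p = 0.0047). Windows of these 3 genes are among those printed above. Actn2 was at 665 and 560 against 1481 to 1811 (−1.42 ± 0.38, edgeR adjusted p = 0.012). Tnni3 was at 2173 and 2564 against 5772 to 6997 (−1.46 ± 0.40, edgeR adjusted p = 0.013). Tcap, the titin cap telethonin, was at 488 and 354 against 1082 to 2562 (−1.99 ± 0.54, edgeR adjusted p = 0.012). Fhl2, a LIM protein that binds titin, was at 444 and 177 against 691 to 1326 (−1.94 ± 0.49, edgeR adjusted p = 0.0069). Myom2 (−1.65 ± 0.50, edgeR adjusted p = 0.028) and Unc45b (−3.26 ± 0.96, edgeR adjusted p = 0.023, from 0 and 1 UMIs) completed the list. Tnnt2 missed the threshold (−1.09 ± 0.37, edgeR adjusted p = 0.054), at 7407 and 9049 against 12417 to 21579. Des was at 2484 and 3861, above the 1602 to 1897 of sham day 1, and did not pass (edgeR adjusted p = 0.092).

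These values rest on 2 plates of few wells, and the number of calls changed with the wells that entered. With plain plate totals the median over all genes was −0.05 and 3 members were lower (Sgca −2.42, Mybpc3 −1.78 and Ttn −1.51), while Des was higher (1.29). With wells of over 1% markers of other classes left out, 3 members passed. Within the Sprr1a cluster alone, sham day 1 was 1 plate of 6 wells, taken to vary like the plates of the other groups, and no gene of the table passed, so that fit gives no check of these calls. Myom2 and Fhl2 then had fold changes of 0.69 ± 1.25 and 0.027 ± 0.99. Without IR day 1 replicate 2 the calls of Ttn, Myom2, Tnni3 and Unc45b were lost, and without replicate 3 those of Sgca, Actn2, Tcap, Fhl2 and Unc45b. On the IR day 1 plates all 9 neutrophil markers were detected, at 543 to 952 CPM in sum, against 5 of 9 at 172 to 552 on the sham day 1 plates. Fibroblast markers stood at 1088 to 3313 with 7 of 10 detected, against 102 to 725 with 9 of 10, and macrophage markers at 163 to 1143 with 9 of 10, against 49.4 to 175 with 8 of 10, and the part of these in the members' values was not tested. The 4 wells of IR day 1 replicate 3 that matched wells of replicate 2 were kept.

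IR day 3 was compared with the 8 sham plates, and 2 of 28 members passed (7.14%), the same share as over all genes (7.14%, with 4.78% higher and 2.36% lower). Myom2 was at 453, 127, 288 and 362, below every sham plate (−1.12 ± 0.27, edgeR adjusted p = 0.0039), which held for 1 member against 2.94% of all genes. Myom2 was also a leading gene of the cluster that held 254 of 324 sham wells and 60 of 242 wells at IR day 3. The part of this split in its fold change was not tested. Pdlim5 was at 1201, 1502, 832 and 1325, where 1 plate lay within the sham range (0.74 ± 0.23, edgeR adjusted p = 0.04), a call lost in 10 of 16 other settings and in 11 of the 19 fits without 1 plate. Tcap (−0.94, edgeR adjusted p = 0.052), Des (0.68, edgeR adjusted p = 0.06) and Tnni3 (−0.78, edgeR adjusted p = 0.063) stood just outside the threshold. Fibroblast markers on the IR day 3 plates summed to 468 to 3686 CPM with 10 of 10 detected, against 102 to 725 on the sham plates with 9 of 10, and macrophage markers to 213 to 1614 with 9 of 10 (Adgre1 at 0), against 23.1 to 175 with 8 of 10. Over 1% markers of other classes were found in 43 of the 242 IR day 3 wells and in 2 of the 324 sham wells. With such wells left out Myom2 and Pdlim5 still passed. The members' median was −0.32 against 0.00 over all genes.

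At IR day 14, 0 of 28 members differed from sham day 14 by edgeR's test or by DESeq2, and 0 had an unadjusted p under 0.05. Over all genes 0.052% were called. The fold changes ran from −0.51 (Myoz2) to 0.58 (Lmod2), with a median of 0.10 (0.02 to 0.18 with 1 plate left out) against 0.04 over all genes. Plates did not overlap for Actn2 and Lmod2, 2 of 28 members, against 7.14% of all genes. Ttn was at 28064, 44528 and 37551 on these plates and Mybpc3 at 3774, 3216 and 3782, and 1 Ttn plate lay above the sham day 14 range and every Mybpc3 plate inside it. The wells of this group also came mostly from the cluster that held most sham wells (232 of 282, against 254 of 324).

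Between day 3 and day 14 of IR 1 member rose, against 4.1% of all genes called (1.17% higher and 2.94% lower). Myom2 was at 810, 966 and 521 at day 14, above every day 3 plate (1.20 ± 0.31, edgeR adjusted p = 0.012), and the call was lost without IR day 14 replicate 1 or replicate 2 and with plain plate totals. Within the Sprr1a cluster alone its fold change was 0.75 ± 0.59 and did not pass. The cluster in which Myom2 was a leading gene held 60 of 242 wells at day 3 and 232 of 282 at day 14. For 11 members, all higher at day 14, the plates did not overlap, against 16.2% of all genes, and 12 had an unadjusted p under 0.05. The members' median was 0.48 against 0.02 over all genes. The sham days differed in 0 of 28 members by edgeR and by DESeq2, against 0.909% of all genes, with 1 member at an unadjusted p under 0.05 and plates apart for 3 (against 6.65%).

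Whether the IR effect itself differed between day 1 and day 14 was tested as an interaction. It was more negative at day 1 for 4 members, against 4.34% of all genes called in either direction and 3.01% in this one: Sgca (difference in log2 fold change 2.61 ± 0.78, edgeR adjusted p = 0.04), Mybpc3 (2.42 ± 0.50, edgeR adjusted p = 0.0021), Ttn (2.35 ± 0.64, edgeR adjusted p = 0.025) and Actn2 (1.85 ± 0.47, edgeR adjusted p = 0.014). The median over all members was 1.37, against 0.53 over all genes, but 2.05 against 2.32 without IR day 1 replicate 3 and 2.12 against 1.75 with no filter on low counts. With plain plate totals the median over all genes was 0.09 and Mybpc3 alone passed (1.93). Mybpc3 passed in all 14 other settings and in all 19 fits without 1 plate, while Sgca was lost in 10 settings and in 8 of those fits, Ttn in 5 and 2, and Actn2 in 4 and 0.

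The MI fold changes were also set against transcript length, which the choice of genes did not use. The longest coding transcript in GENCODE vM21 was known for all 36 members and for 95.7% of the genes tested. Over the other genes the median MI fold change was 0.60 below 2 kb, −0.04 from 2 to 4 kb, −0.69 from 4 to 6 kb, −0.96 from 6 to 8 kb and −1.52 at 8 kb or more. Members were at −0.72 (n = 10), −0.90 (n = 7), −1.38 (n = 7), none from 6 to 8 kb and −3.19 at 8 kb or more (n = 4). In each length class that held members, their median was below that of the other genes, and both medians fell with length. Spearman's rho across genes was −0.53 over 28 members and −0.36 over 3657 other genes, which are not independent as they share the same wells. The 4 longest members tested were Ttn, Dmd (14910 bases), Cmya5 (11850) and Myo18b (8280), and all 4 were lower in MI, as were 99 of the 243 other genes of 8 kb or more (40.7%). Length did not order every member: Sgca (1724 bases) was at 0 UMIs where other genes of its length had a median of 0.60, and Pdlim5 (5016 bases) was higher where they had −0.69. Against IR day 3 the same rho was −0.60 and −0.37, at IR day 1 it was −0.05 and −0.10, at IR day 3 −0.10 and −0.09, and at IR day 14 it was positive (0.50 and 0.16).

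**Figure D3:**
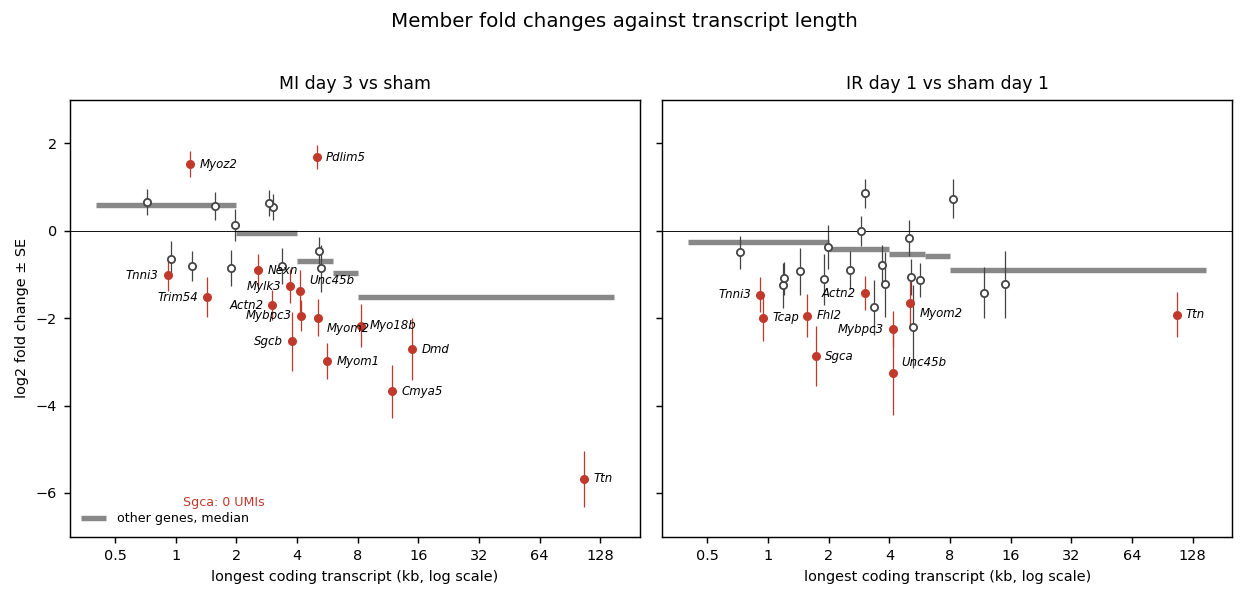
Log2 fold change ± SE of each member against the length of its longest coding transcript (kb, log axis) for MI day 3 against sham and IR day 1 against sham day 1. Filled points passed an edgeR adjusted p of 0.05, grey bars are medians of the other genes in 5 length classes, and Sgca, at 0 UMIs in MI, is marked by its length only. In MI the bars step down from 0.60 to −1.52 with Ttn far below the last, whereas at IR day 1 they lie between −0.26 and −0.89.

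The slow skeletal troponins stayed rare in every group. Tnni1 had 1 UMI among 3380 of Tnni1 and Tnni3 at sham day 14 and 0 elsewhere. For MI, 0 of 798 UMIs allows a share of up to 0.376%, and for IR day 1, 0 of 391 allows 0.767%. Tnnt1 was 8 of 2678 UMIs of Tnnt1 and Tnnt2 in the MI wells (0.299%, exact 95% interval 0.129% to 0.588%) and 3 of 971 at IR day 1 (0.309%, 0.0638% to 0.900%). In the other groups it was 0.0526% to 0.138%. With no test over plates, the MI share and its interval are a description, and both MI plates in the fit had 0 Tnnt1 UMIs.

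Other genes of the same structures, 61 of which were tested, moved in both directions. Of the 61, 50.8% were called in MI against sham, beside 39.4% of all genes. The shares were 36.1% beside 25.7% in MI against IR day 3, and 24.6% beside 10.1% at IR day 1. They were 11.5% beside 7.14% at IR day 3, 6.56% beside 4.1% between IR days and 11.5% beside 4.34% for the difference of IR effects. In MI against sham 15 were higher and 16 lower, with a median of −0.18. The 3 with the largest rise were Pdlim7 (4.37 ± 0.39, edgeR adjusted p = 5.5e-12), Fhl1 (3.88 ± 0.36, edgeR adjusted p = 1.7e-11) and Pdlim3 (3.37 ± 1.06, edgeR adjusted p = 0.0098), all LIM domain proteins. Of those that fell, Myh7b had 0 UMIs against 180 and was at least 5.65-fold lower, and Ank2 had 0 against 75 and was at least 2.35-fold lower. Myh7b was a leading gene of a cardiomyocyte-like cluster that held 58 of 324 sham wells and 0 of 19 MI wells. That cluster held 4 of 29 wells at IR day 1, 20 of 242 at IR day 3 and 23 of 282 at IR day 14. The part of this split in the fold changes of Myh7b was not tested. Against IR day 3, 7 were higher, led by Pdlim7 (3.38), Smpx (2.67) and Synpo2l (2.22), and 15 lower, with Ank2 at least 3.04-fold and Myh7b at least 1.60-fold lower and Dag1, the dystroglycan gene, at −4.97 ± 0.68 (edgeR adjusted p = 4.2e-07). Dag1 belongs to the same membrane complex as Sgca, Sgcb and Dmd. At IR day 1, 10 were higher, led by Tpm4 (3.68), Synpo2l (3.43) and Fhl1 (3.18), and 5 lower, including Myh7b (0 UMIs against 108), Cap2 (0 against 53) and Fbxo32 (−3.86), which encodes the muscle ubiquitin ligase atrogin-1. At IR day 3, Fhl1 (1.90), Actn1 (1.79) and Ilk (1.41) were among 5 that were higher, and Myh7b (−1.89) and Speg (−0.92) were lower. From IR day 3 to day 14 Myh7b rose (1.91) and Actn1 (−2.13), Fhl1 (−1.51) and Cryab (−1.32) fell. The IR effect differed between day 14 and day 1 for 7 of the 61. It was more positive at day 14 for 3 genes, among them Fbxo32 (4.84 ± 0.97) and Myh7b, whose IR day 1 plates held 0 UMIs, and more negative for 4, among them Tpm4 (−4.55 ± 1.13), Fhl1 (−2.39 ± 0.68) and Flnc (−2.37 ± 0.48), with edgeR adjusted p from 0.0018 to 0.037. At IR day 14 and between the sham days 0 of 61 passed by edgeR, with 2 and 3 at an unadjusted p under 0.05.

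The members were then followed in wells of other classes, where RNA set free from other cells can be counted. The members made up 0.773% of UMIs in endothelial-like wells, 0.168% in fibroblast-like, 0.0860% in macrophage-like and 0.191% in neutrophil-like wells, against 6.64% in cardiomyocyte-like wells. After thinning to 1000 UMIs, 52.5% of macrophage-like wells (exact 95% interval 48.5% to 56.5%; median depth before thinning 12179 UMIs), 77.9% of fibroblast-like wells (73.1% to 82.2%; 11259) and 88.4% of endothelial-like wells (3604) held at least 1 member UMI, while 96.6%, 99.4% and 98.5% did unthinned. On plates with at least 5 wells of both classes, the members' summed level was a median of 20.4% of that in cardiomyocyte-like wells in endothelial-like wells (1.1% to 37.9%, 16 plates), 6.0% in fibroblast-like wells (1.9% to 23.2%, 12 plates) and 2.8% in macrophage-like wells (0.7% to 4.3%, 12 plates). These are values pooled over groups, and the classes did not keep 1 order within each group. In MI the members were 0.107% of UMIs in fibroblast-like wells (68.9% of wells thinned, median depth 44902) and 0.081% in endothelial-like wells (56.1%, 16645).

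The members' share of UMIs in wells of other classes differed between groups. In endothelial-like wells it was 1.25% of UMIs at sham day 1, 1.87% at sham day 14, 0.342% at IR day 1, 1.47% at IR day 3, 1.73% at IR day 14 and 0.081% at MI day 3. In macrophage-like wells it was 0.160%, 0.381%, 0.071%, 0.233%, 0.177% and 0.042% in the same order. In fibroblast-like wells it was 0.522%, 0.501%, 0.095%, 0.735%, 0.758% and 0.107%. MI was lowest in endothelial-like and macrophage-like wells and IR day 1 in fibroblast-like wells. MI wells were the deepest (median 16645 UMIs in endothelial-like and 22822 in macrophage-like wells), and it was the group with the fewest cardiomyocyte-like wells. An unnamed cluster of 295 wells led by Lars2 and Rn45s held 3.95% member UMIs at a median of 1379 UMIs per well, and it was not counted among the cardiomyocyte-like wells. Its median share of cardiomyocyte markers was 5.65%, against 4.32% in MI and 3.54% in IR day 1 cardiomyocyte-like wells, so it may hold cardiomyocytes. With members kept in the clustering 1179 wells were called cardiomyocyte-like, and 1410 when each well was called by its own markers.

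**Figure D4:**
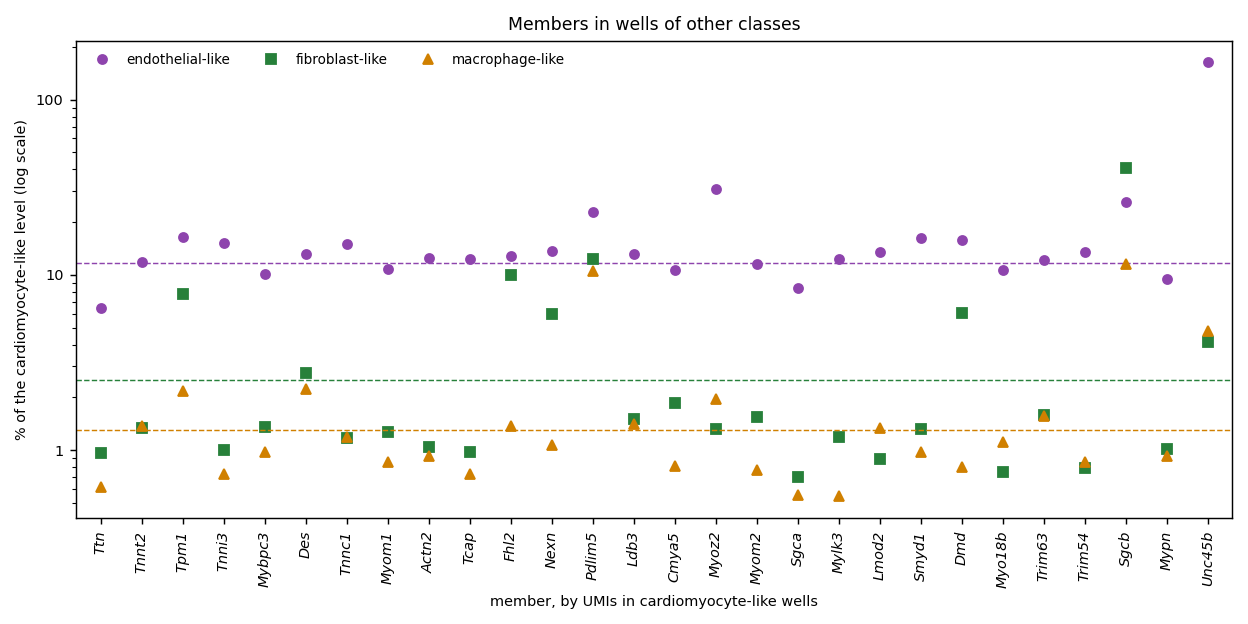
Level of the 28 tested members, in CPM, in endothelial-like, fibroblast-like and macrophage-like wells as a percentage of their level in cardiomyocyte-like wells (log axis). Dashed lines give the percentage for the summed members in each class. Ttn lies below its line in each class, and in endothelial-like wells Unc45b (163%), Myoz2 (30.9%), Sgcb (26.2%) and Pdlim5 (22.8%) stand above it.

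The members stood at different percentages of their cardiomyocyte-like level. In endothelial-like wells Ttn was at 6.4%, Mybpc3 at 10.2% and Tnnt2 at 11.8% over pooled wells, and on the 16 plates with both classes the medians were 9.3% for Ttn, 19.3% for Tnnt2, 20.1% for Mybpc3, 30.9% for Tpm1 and Tnnc1, 43.1% for Pdlim5 and 60.7% for Myoz2. The part of free RNA in these levels was not tested. Unc45b was at 163% of its cardiomyocyte-like level in endothelial-like wells, from 708 UMIs, and was above it on 14 of the 16 plates with both classes (median 274%, 75.2% to 631%). Synm, which encodes the intermediate filament protein synemin, was at 422% there (95 UMIs against 30), above on 13 of 16 plates, and at 567% in the 21 mural-like wells (36 UMIs). In fibroblast-like wells it was above the cardiomyocyte-like level on 10 of 12 plates (median 397%). Per UMI, Unc45b and Synm were thus counted more often in endothelial-like than in cardiomyocyte-like wells. In fibroblast-like wells Sgcb stood at 40.5% and Sgcd, which encodes delta-sarcoglycan, at 35.0% (71 UMIs), against 1.0% for Ttn and 1.3% for Tnnt2, over wells pooled across groups that supply the classes unequally. On the 12 plates with both classes the medians were 64.9% for Sgcb (above the cardiomyocyte-like level on 4), 21.2% for Sgcd, 4.3% for Ttn and 5.1% for Tnnt2. Pdlim5 was at 22.8%, 12.2% and 10.6% in endothelial-like, fibroblast-like and macrophage-like wells, and Tpm1 at 16.5%, 7.8% and 2.2%. The same-plate medians in the latter 2 classes were 23.8% and 11.1% for Pdlim5 and 10.7% and 3.2% for Tpm1. Myoz2 was at 30.9% in endothelial-like wells and above the cardiomyocyte-like level on 3 of 16 plates. In mural-like wells Des was at 20.1% and Dmd at 21.1%. Tnni1 had 8 UMIs in endothelial-like and 6 in mural-like wells against 1 in cardiomyocyte-like wells.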

How the data were processed

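Single cells were measured by SORT-seq in 384-well plates. Per the study's methods, the authors mapped paired reads with BWA to GRCm38/mm10, and deposited UMI counts per gene and well. All 174110208 values were whole, with a highest of 4096, the number of 6-base UMIs, so the deposited counts are not corrected for shared UMIs and high counts are compressed. Mitochondrial genes and spike-ins were left out of all totals used for levels and tests. Plates held 176614 to 5551870 UMIs with them and 28642 to 4261077 without them. Counting intervals and limits cover counting error only.

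Wells of at least 1000 UMIs were clustered with scanpy 1.11.5 and leidenalg 0.10.2 (2000 variable genes, 30 components, 15 neighbours) without the 36 members, and named from marker lists. A name stands for cells like that class. Doublets were not called, so wells over 1% markers of other classes were left out in an alternative. All plates share the same well barcodes by design. Each of 1260 ordered plate pairs was screened for copied wells, and sham day 14 replicates 2 and 7 were averaged and counted as 1 plate (replicate 7). IR day 1 replicate 9 shared 17 wells with replicate 5 and 7 with replicate 8 and did not enter the fit.

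Summed counts per plate (at least 5 wells) were tested with edgeR 4.0.16 in R 4.3.3, with 1 mean per group over all 6 groups. The steps were filterByExpr, TMM and the quasi-likelihood test, and the biological coefficient of variation was 27.9%. A run on simulated data raised and lowered the same number of genes, so it did not check an uneven shift such as may occur in MI. Alternatives were DESeq2 1.42.0, other scalings, filters, well sets and controls, a replicate block and each plate left out. Same-numbered plates of different groups did not deviate together (18 pairs, −0.096 to 0.154, median 0.023), so the numbers were not taken to pair plates.

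The members and lists were chosen with earlier results of these data known. Every member past the threshold is named with its values, the others by range, and of the other pathway genes the 3 with the largest fold change in each direction, 2 of which are not reported here. Members, locations and lengths were matched by symbol to GENCODE vM21 and RefSeq.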

Additional observations from a re-analysis of the deposited data

Results flagged for a closer look

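Within groups of 4 plates, 3 of 87 member and group combinations had a plate set apart from the rest by Dixon's 95% criterion, about as many as the 1 in 20 that chance gives. Myom2 was lowest on sham day 1 replicate 4 (593 CPM, the others 663 to 670), and Tnnc1 was highest on the same plate (2272, the others 1518 to 1593). Myoz2 was highest on IR day 3 replicate 5 (1158, the others 439 to 528), a plate with 13 cardiomyocyte-like wells.

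The IR effect at day 14 differed from that at day 1 by a test of the difference itself for Sgca (2.61), Mybpc3 (2.42), Ttn (2.35) and Actn2 (1.85), as log2 differences of the fold changes from edgeR. With plain plate totals Mybpc3 alone passed.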

How the results depend on the processing

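The number of members called was recomputed under each alternative. In MI against sham 17 passed, and every alternative gave a number within 1.5 times of that (12 to 20 with 1 plate left out). Ttn, Sgca, Cmya5, Myom1, Myom2, Myo18b, Mybpc3, Actn2 and Pdlim5 passed in all 15 settings and all 19 fits without 1 plate. In MI against IR day 3 (12 passed) the Sprr1a cluster alone gave 5, and leaving out 1 plate gave 7 to 13. At IR day 1 (9 passed) the number was 5 with at least 10 wells per plate or wells thinned to 1000 UMIs, 1 with wells of at least 2000 UMIs, 3 without wells holding other markers, 0 in the Sprr1a cluster alone, 4 with plain plate totals, and 6 to 14 with 1 plate left out (6 without IR day 1 replicate 2, and 14 without IR day 3 replicate 5 or either MI plate). In the Sprr1a cluster alone Fhl2 (0.027 ± 0.99) and Myom2 (0.69 ± 1.25) reversed at IR day 1, where that fit held 1 sham plate of 6 wells, no gene passed, and the cause was not tested. At IR day 3 (2 passed) it was 5 with RLE size factors, 4 with DESeq2 or Rn45s left out, 1 with no filter, at least 3 wells per plate, wells of at least 2000 UMIs, members kept in the clustering or sham day 14 alone as control, 0 with wells called one by one, and 1 to 4 with 1 plate left out (4 without sham day 14 replicate 7 or IR day 3 replicate 6, and 1 without any one of 10 other plates). Between IR day 14 and day 3 (1 passed) it was 0 with wells of at least 2000 UMIs, wells called one by one, the Sprr1a cluster or plain totals, 2 with thinned wells, and 0 to 1 with 1 plate left out. For the difference of the IR effects (4 passed) it was 2 with RLE factors, 12 with no filter, 1 with wells of at least 2000 UMIs, without wells holding other markers or with plain totals, 8 with members kept in the clustering, 7 with wells called one by one, and 2 to 9 with 1 plate left out (2 without IR day 1 replicate 2 or IR day 14 replicate 2, 9 without IR day 1 replicate 3, 8 without either MI plate and 7 without IR day 3 replicate 5). At IR day 14 and between sham days all settings gave 0. The replicate block gave 8 members at IR day 1, 0 at IR day 3, 14 in MI against sham, 9 in MI against IR day 3, 2 for the difference of IR effects and 0 between IR days, although the numbers do not pair the plates. MI was not run at 10 wells per plate, as no MI plate had as many.

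Other scalings moved the split of calls over all genes: with plain totals higher genes made up 70.6% of those called in place of 38.8% at IR day 1, 84.7% in place of 66.9% at IR day 3, 54.9% in place of 34.7% in MI against IR day 3, 13.6% in place of 28.5% between IR days and 31.9% in place of 69.5% for the difference of IR effects, and at IR day 1 it was 51.5% with RLE factors and 63.5% with DESeq2. The share of wells with a member UMI rose without thinning to 99.4% in fibroblast-like, 98.5% in endothelial-like, 96.6% in macrophage-like and 83.4% in neutrophil-like wells and to 86.7% and 95.1% in unnamed clusters 7 and 8, and in wells of at least 2000 UMIs it was 53.0% in neutrophil-like and 100% in erythrocyte-like wells. Depth limits Dmd, Sgca, Sgcb, Unc45b and Cmya5 in MI and IR day 1, where plates held 0 to 13 UMIs of each.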
